A study of Mus musculus with 8 samples.

Results

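The RNAs described here are 7 noncoding RNAs, Malat1, Neat1, Miat, Snhg11, Rn45s, Rmrp and Rpph1, taken from an expression table of mouse hippocampus by gene symbol. The rule used no measured value, but the list was drawn up with earlier results of these data known. All 7 were in the table of 19201 genes, and all 7 passed the minimum mean normalized count of 10 that was set for testing, as did 14504 genes in all. A normalized count is the number of reads on a gene divided by a size factor that puts the libraries on one scale. The comparison was between wild-type mice on the C57BL/6 background, which the labels call Control, and littermates on the same background that carry the Mbd2-/- allele, a germline deletion present in every cell from conception, with 4 libraries per genotype. No treatment was given, all mice were 10 to 12 weeks old, and each library came from the pooled hippocampi of 2 mice, so that the replicates are pools. Mbd2 encodes a protein that binds methylated DNA, and the comparison asks how hippocampal RNA differs when it is missing.

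These RNAs belong to different classes. Malat1, Neat1 and Miat are long transcripts of RNA polymerase II that stay in the nucleus. Malat1 gathers at nuclear speckles, where splicing factors are stored, Neat1 is the scaffold of paraspeckles, and Miat, also called Gomafu, forms its own nuclear spots in neurons. Snhg11 is a host transcript whose introns carry small nucleolar RNAs, which guide the modification of other RNAs, and it is known as a neuronal transcript. Rn45s is the precursor of the large ribosomal RNAs and is made by RNA polymerase I in the nucleolus. Rmrp and Rpph1 are short transcripts of RNA polymerase III and are the catalytic RNAs of RNase MRP, which cuts the ribosomal RNA precursor, and RNase P, which trims the 5′ ends of transfer RNA precursors. RNase P also cuts the 3′ ends of Malat1 and Neat1 at an element folded like a transfer RNA, and the new ends are then protected by a triple helix rather than a poly(A) tail.

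The sequences that join these RNAs are at the 3′ ends of Malat1 and Neat1 and in the RNAs that form RNase P and RNase MRP. The stretches shown first hold the longest run of bases that Malat1 and Neat1 share within 400 bases of their annotated 3′ ends. They were read from mm9 at chr19:5795914-5796043 for Malat1 and chr19:5824647-5824776 for Neat1, both on the minus strand and written 5′ to 3′ as DNA. Capitals mark each run of at least 8 bases that both stretches hold in the same order.
Malat1 3′ end: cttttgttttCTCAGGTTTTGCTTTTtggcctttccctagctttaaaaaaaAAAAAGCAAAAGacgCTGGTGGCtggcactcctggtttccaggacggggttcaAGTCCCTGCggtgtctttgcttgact
Neat1 3′ end: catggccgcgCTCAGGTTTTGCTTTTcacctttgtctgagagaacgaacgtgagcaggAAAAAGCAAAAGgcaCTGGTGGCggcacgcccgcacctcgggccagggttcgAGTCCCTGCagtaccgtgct
The longest shared run had 16 bases and covers a uridine-rich strand of the triple helix, and the adenine-rich run after it is the strand that pairs with it. The last capitals in each stretch fall in the element that RNase P recognises. The shared run of 16 bases began 343 bases inside the annotated 3′ end of Malat1 and 58 bases inside that of Neat1. The annotated end of Malat1 thus lies beyond the whole stretch shown, whereas that of Neat1 falls at the end of the adenine-rich run, before the RNase P element.

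Rmrp is given whole, from chr4:43505660-43505930 on the minus strand (271 bases). Rpph1 is annotated at chr14:51427124-51427442 on the minus strand (319 bases), and its last 300 bases, chr14:51427124-51427423, are given. The RNAs of these related enzymes are shown together because their normalized counts were both above the wild-type range in the same 3 Mbd2-/- libraries. Capitals mark runs of at least 8 bases found in both.
Rmrp: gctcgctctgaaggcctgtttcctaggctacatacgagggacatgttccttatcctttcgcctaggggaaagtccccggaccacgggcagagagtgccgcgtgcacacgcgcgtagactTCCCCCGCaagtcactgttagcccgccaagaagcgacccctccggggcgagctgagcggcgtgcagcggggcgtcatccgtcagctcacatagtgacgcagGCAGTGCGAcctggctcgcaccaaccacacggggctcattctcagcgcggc
Rpph1: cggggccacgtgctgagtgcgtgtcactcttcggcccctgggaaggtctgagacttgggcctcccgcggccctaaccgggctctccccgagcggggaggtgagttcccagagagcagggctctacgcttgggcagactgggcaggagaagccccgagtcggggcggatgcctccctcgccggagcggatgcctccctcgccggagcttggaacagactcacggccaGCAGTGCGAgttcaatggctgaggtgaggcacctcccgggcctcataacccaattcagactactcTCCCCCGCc
The longest of these runs had 9 bases and began at position 221 of Rmrp and 246 of the whole Rpph1 RNA of 319 bases.

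The 150 bases before each annotated start are printed because both genes are read by RNA polymerase III from promoters that lie outside the transcript. They are chr4:43505931-43506080 for Rmrp and chr14:51427443-51427592 for Rpph1, on the minus strand of mm9. Capitals mark matches on either strand to the octamer ATGCAAAT or to TATAA, which do not overlap.
Rmrp upstream: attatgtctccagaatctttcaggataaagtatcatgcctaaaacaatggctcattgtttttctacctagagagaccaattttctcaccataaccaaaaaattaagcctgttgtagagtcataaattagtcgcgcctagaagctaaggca
Rpph1 upstream: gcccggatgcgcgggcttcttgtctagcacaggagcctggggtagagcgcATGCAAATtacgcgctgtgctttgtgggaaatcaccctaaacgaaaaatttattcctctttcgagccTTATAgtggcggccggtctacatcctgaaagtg
Upstream of Rpph1 there was 1 octamer match, whose first base lay 100 bases before the start, and 1 match to TATAA on the opposite strand, 33 bases before the start. Neither motif was matched in the window of Rmrp. Among 37310 annotated gene starts, 1.31% had the octamer and 17.8% had TATAA in the 150 bases before them.

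The 8 libraries held 8439570 to 23790825 reads on genes in wild-type and 8087750 to 14020765 in Mbd2-/- hippocampi. Mbd2 itself had normalized counts of 295, 363, 371 and 354 in wild-type libraries 1 to 4 and of 244, 240, 339 and 217 in Mbd2-/- libraries 1 to 4, and it was lower in Mbd2-/- (log2 fold change -0.43, adjusted p = 0.0174, limma). The allele keeps the first exon, so reads on the gene are not absent. Mbd2-/- library 4 had the lowest Mbd2 count of all. Hippocampal neuron markers were present in every library, with a summed normalized count of 97064 to 98857 in wild-type and 106199 to 111507 in Mbd2-/- libraries, and Camk2a was the most abundant of them. Of these 9 markers, 1, Camk2a, was called higher and 3, Prox1, Wfs1 and Fibcd1, lower, beside 12.0% higher and 10.0% lower of all genes tested. The median log2 fold change of the 9 was -0.11, so the higher sum is that of Camk2a.

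The 7 RNAs differed widely in abundance. Together they took 3.86% to 6.07% of the reads of a library. Rn45s ranked 1 among all genes by mean normalized count, Rpph1 ranked 3, Rmrp 5 and Malat1 9, whereas Snhg11 ranked 867, Miat 1592 and Neat1 2296. Levels in wild-type libraries were also taken as RPKM (reads scaled to library size and to the length of the longest annotated transcript). They were 19003 ± 2023 for Rpph1, 11058 ± 1365 for Rmrp and 559 ± 62.3 for Malat1 (SD, n = 4). On the same scale they were 42.1 ± 2.79 for Snhg11, 18.8 ± 2.55 for Miat and 5.47 ± 0.625 for Neat1 (SD, n = 4). Each step in this order was larger than the spread between libraries. Rn45s has no place in it, because its length was not analysed here.

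Malat1, Neat1, Miat and Snhg11 had lower mean counts in Mbd2-/- hippocampi, Rmrp and Rpph1 had higher mean counts, and Rn45s had nearly the same mean. In the test of all 8 libraries, 2 of the 7 RNAs, Miat and Snhg11, were called lower, 0 were called higher and 5 did not pass an adjusted p of 0.05. Of the 14504 genes tested, 12.0% were called higher and 10.0% lower by the same rule. The genotypes overlapped in all 7 RNAs, so 0 of 7 were free of overlap, beside 23.6% of all genes tested. At an unadjusted p under 0.05 in limma, 2 of the 7 were higher and 4 lower. DESeq2 called Rmrp and Rpph1 higher at adjusted p of 0.022 and 0.04995 and Miat lower at 0.0262, beside 11.4% of all genes higher and 9.18% lower. The edgeR test called 0 of the 7 in either direction, with 6 at an unadjusted p under 0.05, beside 12.5% of all genes higher and 9.8% lower.

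The overlap came from Mbd2-/- library 4 in 6 of the 7 RNAs. In Mbd2-/- library 4 the counts of all 7 RNAs lay within the range of the wild-type libraries, whereas 1, 0 and 0 of the 7 did so in Mbd2-/- libraries 1, 2 and 3. Over the 14504 genes tested, 36.2% of the counts of Mbd2-/- library 4 lay within the wild-type range, and 32.1%, 36.1% and 29.2% did so in the others. This comparison was chosen after the values were seen. Mbd2-/- library 4 stood apart from its group over the whole table as well. Over 12060 genes, the variance between a pair of libraries was 9.77 to 16.5 times that of counting in pairs with Mbd2-/- library 4, 4.04 to 6.43 times among Mbd2-/- libraries 1 to 3 and 2.07 to 5.65 times among wild-type libraries. Without Mbd2-/- library 4, 4 of the 7 RNAs were called lower and 2 higher, beside 17.6% and 17.9% of all genes, and 6 of 7 were free of overlap, beside 39.2% of all genes. Each RNA is therefore given with and without this library. Leaving out Mbd2-/- library 4 was also chosen after the values were seen. Larger changes, smaller p-values and less overlap can follow from that choice, so the values without it are descriptions.

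**Figure D1:**
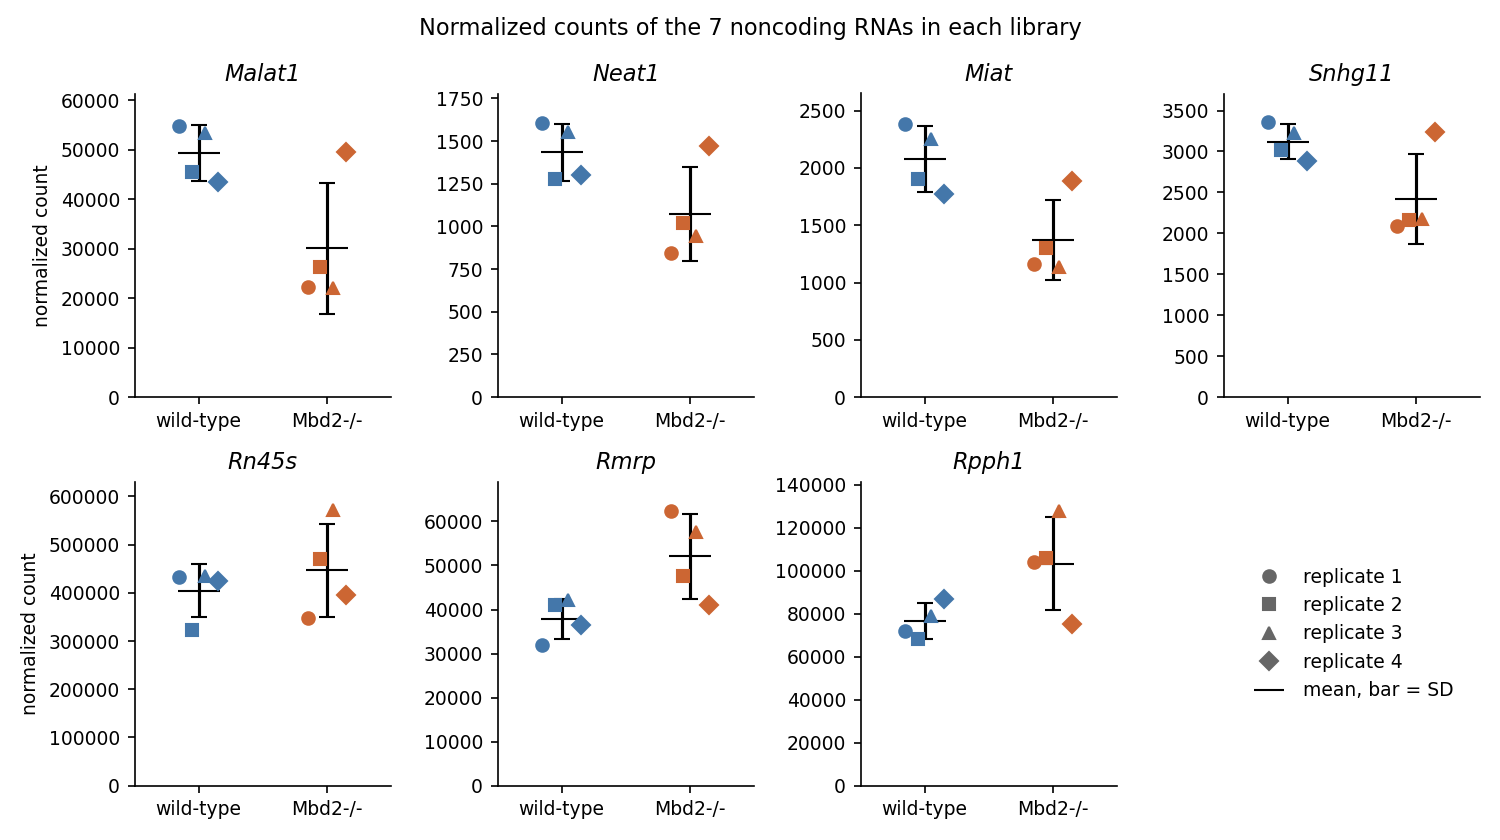
Normalized count (y axis, starting at 0) of each of the 7 noncoding RNAs in the 4 wild-type and 4 Mbd2-/- libraries. Each point is 1 library with its replicate number as the symbol, the horizontal line is the mean and the bar the SD; Mbd2-/- replicate 4 (diamond) lies within the wild-type range in all 7 panels.

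Malat1 lies at chr19:5795690-5802671 on the minus strand of mm9 (6982 bases, annotated as a processed transcript). Its normalized counts were 54739, 45493, 53400 and 43413 in wild-type libraries 1 to 4 and 22295, 26363, 21972 and 49629 in Mbd2-/- libraries 1 to 4. Mbd2-/- libraries 1 to 3 were all below the lowest wild-type library, at 44.6% to 53.5% of the wild-type mean, and Mbd2-/- library 4 was at 101% of it. The means were 49261 ± 5643 in wild-type and 30065 ± 13195 in Mbd2-/- (SD, n = 4), so the coefficient of variation was 11.5% in wild-type and 43.9% in Mbd2-/- hippocampi. The log2 fold change was -0.79 (SE 0.28, 95% interval -1.48 to -0.11), which did not pass (adjusted p = 0.0981, limma; exact two-sided permutation p = 0.0857). It was -1.06, with an adjusted p of 0.00144 in limma, once Mbd2-/- library 4 was left out.

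Neat1 lies next to Malat1, at chr19:5824708-5845478 on the same strand (20771 bases), with 22.0 kb between them. Its counts were 1607, 1276, 1551 and 1302 in wild-type libraries 1 to 4 and 847, 1022, 945 and 1471 in Mbd2-/- libraries 1 to 4. The same 3 Mbd2-/- libraries lay below all wild-type libraries, at 59.0% to 71.3% of the wild-type mean, and library 4 was at 103%. The means were 1434 ± 169 and 1071 ± 276 (SD, n = 4), a log2 fold change of -0.45 (SE 0.16, 95% interval -0.80 to -0.09) that did not pass (adjusted p = 0.0707, limma; exact permutation p = 0.0857). Leaving out Mbd2-/- library 4 gave -0.61 (adjusted p = 5.01e-05, limma).

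Miat, at chr5:112642248-112657968 on the minus strand (longest transcript 8760 bases, a long intergenic noncoding RNA), was lower in Mbd2-/- hippocampi. Its counts were 2385, 1900, 2249 and 1772 in wild-type libraries 1 to 4 and 1158, 1301, 1136 and 1888 in Mbd2-/- libraries 1 to 4. Mbd2-/- libraries 1 to 3 had 54.7% to 62.7% of the wild-type mean and library 4 had 90.9%, which is above wild-type library 4. The means were 2076 ± 288 and 1371 ± 352 (SD, n = 4), a log2 fold change of -0.62 (SE 0.17, 95% interval -1.01 to -0.23; adjusted p = 0.033, limma; exact permutation p = 0.0571). The change was no longer called with edgeR (-0.58, adjusted p = 0.0517) or with the replicate number as a block (adjusted p = 0.185, limma). It was also not called when any of 4 single libraries was left out. The adjusted p from limma was 0.0624 without wild-type library 3, 0.0595 without Mbd2-/- library 1, 0.0623 without library 2 and 0.117 without library 3. Without Mbd2-/- library 4 the log2 fold change was -0.78 (adjusted p = 0.000266, limma).

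Snhg11, at chr2:158201374-158211881 on the plus strand (longest transcript 5864 bases, listed as protein coding in this annotation), was also lower. Its counts were 3359, 3017, 3222 and 2878 in wild-type libraries 1 to 4 and 2090, 2169, 2179 and 3234 in Mbd2-/- libraries 1 to 4. Mbd2-/- libraries 1 to 3 lay close together at 67.0% to 69.9% of the wild-type mean, and library 4 stood at 104%. The means were 3119 ± 213 and 2418 ± 545 (SD, n = 4), a log2 fold change of -0.39 (SE 0.12, 95% interval -0.64 to -0.13; adjusted p = 0.0337, limma; exact permutation p = 0.114). The call was lost with edgeR (adjusted p = 0.0642) and with DESeq2 (0.107). In limma it was lost without trend and robust moderation (0.0907), with the trend on transcript length removed (0.0714) and with the replicate number as a block (0.0936). It was also lost in limma without any one of wild-type libraries 1, 2 and 3 (0.0721, 0.0528 and 0.0621) or Mbd2-/- libraries 1, 2 and 3 (0.08, 0.0745 and 0.172). Leaving out Mbd2-/- library 4 gave -0.54 (adjusted p = 1.37e-08, limma).

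**Figure D2:**
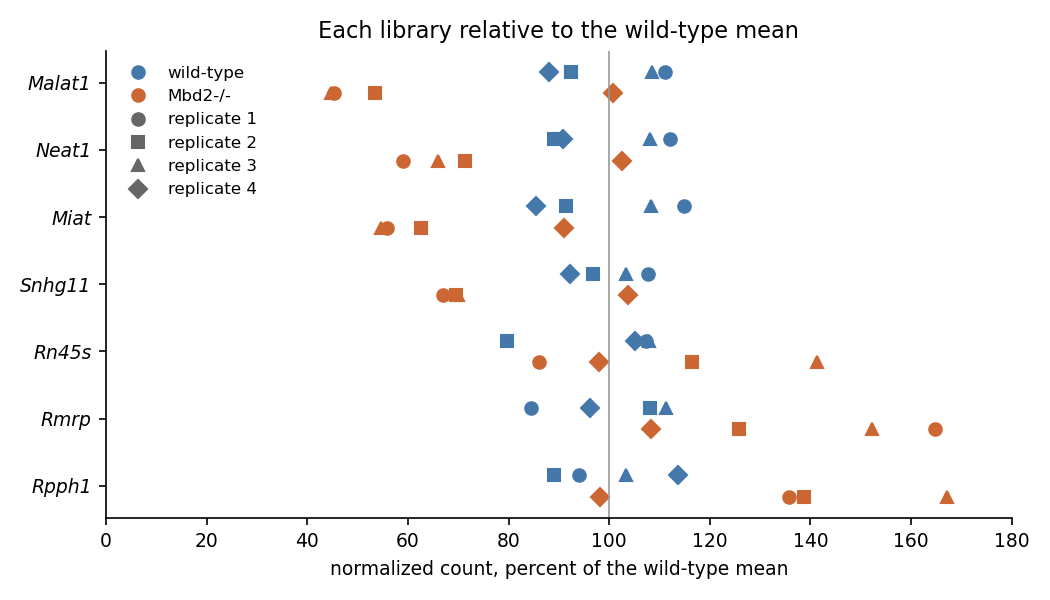
Normalized count of each library as a percent of the wild-type mean (x axis, 100 marked by the line) for the 7 noncoding RNAs. Colour gives the genotype and the symbol the replicate; Malat1, Neat1, Miat and Snhg11 sit left of the wild-type points in Mbd2-/- replicates 1 to 3, Rmrp and Rpph1 sit right of them, and Mbd2-/- replicate 4 lies at 90.9% to 108% in all 7.

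Rn45s, the ribosomal RNA precursor, was the most abundant entry in the table and took 2.57% to 4.43% of the reads. The libraries had been depleted of ribosomal RNA and the ribosomal genes are present in many copies, so its count is that of the reads left after depletion and assigned to this entry. The counts were 433655, 322326, 435877 and 424608 in wild-type libraries 1 to 4 and 347966, 470843, 570767 and 395900 in Mbd2-/- libraries 1 to 4. The lowest value was in a wild-type library and the highest in an Mbd2-/- library, and the genotypes overlapped. The means were 404116 ± 54744 and 446369 ± 97132 (SD, n = 4), a log2 fold change of 0.13 with a 95% interval of -0.31 to 0.57 (adjusted p = 0.663, limma; exact permutation p = 0.514). It was 0.18 without Mbd2-/- library 4 (adjusted p = 0.568, limma).

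Rmrp, the RNA of RNase MRP, had counts of 31955, 40924, 42062 and 36373 in wild-type libraries 1 to 4 and of 62326, 47585, 57616 and 41000 in Mbd2-/- libraries 1 to 4. Mbd2-/- libraries 1 to 3 were above all wild-type libraries, at 126% to 165% of the wild-type mean, and library 4 was at 108%. The means were 37829 ± 4623 and 52132 ± 9637 (SD, n = 4), a log2 fold change of 0.45 (SE 0.15, 95% interval 0.10 to 0.80) that did not pass (adjusted p = 0.0693, limma; exact permutation p = 0.0571). Leaving out Mbd2-/- library 4 gave 0.56 (adjusted p = 0.0306, limma).

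Rpph1, the RNA of RNase P, had counts of 71938, 68070, 79092 and 87012 in wild-type libraries 1 to 4 and of 103935, 106114, 127916 and 75144 in Mbd2-/- libraries 1 to 4. Again Mbd2-/- libraries 1 to 3 lay above every wild-type library, at 136% to 167% of the wild-type mean, and library 4 was at 98.2%. The means were 76528 ± 8349 and 103277 ± 21657 (SD, n = 4), a log2 fold change of 0.41 (SE 0.17, 95% interval 0.01 to 0.82; adjusted p = 0.133, limma; exact permutation p = 0.0857). Without Mbd2-/- library 4 it was 0.56 (adjusted p = 0.0176, limma).

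Rmrp and Rpph1 are among the shortest genes of the table, and differences between the genotypes followed transcript length. The Spearman correlation across 14074 genes between transcript length and the log2 ratio of a library to the wild-type mean was -0.49, -0.43 and -0.48 in Mbd2-/- libraries 1 to 3, -0.10 in Mbd2-/- library 4 and -0.06 to 0.07 in the wild-type libraries (genes are not independent replicates). When this trend was removed from each library, the log2 fold change was -0.022 for Rmrp (adjusted p = 0.844, limma) and -0.038 for Rpph1 (0.841). Only 46 tested genes were as short as Rmrp, 56 as short as Rpph1 and 8 as long as Neat1. The trend is thus thinly supported at these lengths. Malat1 then had -0.68, Neat1 -0.24, Miat -0.48 and Snhg11 -0.29, all still below 0, and of these Neat1 and Miat were called lower, beside 6.75% of the 14074 genes in that fit.

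**Figure D3:**
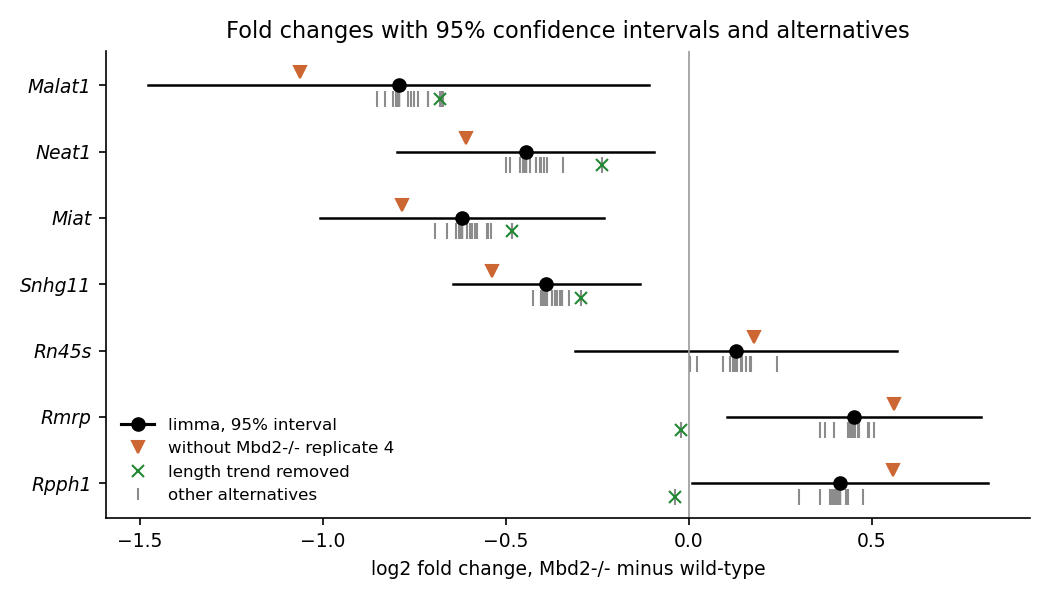
Log2 fold change, Mbd2-/- minus wild-type (x axis), of the 7 noncoding RNAs. Circles with bars are limma estimates with 95% intervals, triangles the estimate without Mbd2-/- replicate 4, crosses the estimate after the length trend was removed (not available for Rn45s) and ticks the other alternatives; the crosses of Rmrp and Rpph1 lie at -0.022 and -0.038.

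The RNAs also varied together among libraries of one genotype. The deviations of the 8 libraries from their genotype means had a Pearson's r of 0.95 to 0.98 between any pair of Malat1, Neat1, Miat and Snhg11. These deviations ran against those of Rmrp (r of -0.79 to -0.72) and Rpph1 (r of -0.84 to -0.69), and Rmrp and Rpph1 had an r of 0.57 with each other. Rn45s had an r of -0.16 to 0.10 with the 4 long RNAs, -0.12 with Rmrp and 0.63 with Rpph1. The 8 points share their libraries and normalization, and Mbd2-/- library 4 lies farthest from its group mean in the long RNAs, so these are descriptions without a test.

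Ratios between the RNAs within a library do not depend on the size factor. Malat1 over Neat1 in normalized counts was 33.4 to 35.7 in the wild-type libraries, 23.3 to 26.3 in Mbd2-/- libraries 1 to 3 and 33.7 in Mbd2-/- library 4. Rpph1 over Malat1 was 1.31 to 2.00 in wild-type libraries, 4.03 to 5.82 in Mbd2-/- libraries 1 to 3 and 1.51 in library 4. Rmrp over Malat1 was 0.584 to 0.900, 1.81 to 2.80 and 0.826 in the same order. Thus Rpph1 over Malat1 differed between 3 Mbd2-/- libraries and the rest, whereas Rpph1 over Rmrp was 1.66 to 2.39 in all 8 libraries. Malat1 is far longer than Rpph1 and Rmrp, and differences in Mbd2-/- libraries 1 to 3 followed transcript length. The part of length in these ratios was not tested.

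The genes whose deviations were most like each RNA were named as the 2 with the highest r over the 8 libraries among all genes tested. They were A330023F24Rik (0.994) and Mcc (0.992) for Malat1, Ice1 (0.994) and Glg1 (0.992) for Neat1, and Dock3 (0.997) and Gm7173 (0.991) for Miat. Snhg11 was most like Glg1 (0.982) and Cep97 (0.980), so Glg1 stood among the nearest genes of both Neat1 and Snhg11. For Rn45s they were Nelfb (0.984) and Grk6 (0.977), for Rmrp Lingo1 (0.992) and 4930404N11Rik (0.987), and for Rpph1 Cope (0.986) and Itga3 (0.985). These r were picked as the highest among all genes tested, so they are high in part by selection. Being alike in this way says nothing of the direction between genotypes. Lingo1, most like Rmrp within the genotypes, was lower in Mbd2-/- hippocampi (log2 fold change -0.32, adjusted p = 0.00102, limma).

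The nearest tested genes on each side of the 6 RNAs with a position, with any gene overlapping them, were 11 genes apart from the RNAs themselves. Of these, 2 were called higher, 1 lower and 8 did not pass, beside 12.0% higher and 10.0% lower of all genes, so these calls are near the background. Their median log2 fold change was -0.000908, beside -9.1e-05 over all genes tested. Ccdc107 overlaps Rmrp on the opposite strand. Its counts were 169, 151, 171 and 166 in wild-type libraries 1 to 4 and 217, 234, 303 and 182 in Mbd2-/- libraries 1 to 4, with no overlap (log2 fold change 0.48, SE 0.12, adjusted p = 0.0103, limma). Whether reads were counted by strand is not given in the sources used here, so reads of Ccdc107 and Rmrp cannot be told apart where the genes overlap. Ttc5, 21.9 kb from Rpph1, was higher (0.19, adjusted p = 0.0453, limma), whereas Parp2, the DNA repair gene whose annotated start lies 179 bases from that of Rpph1, had 145 ± 19.8 and 154 ± 5.85 normalized counts (SD, n = 4; adjusted p = 0.53, limma). Ralgapb, 23.7 kb from Snhg11, was lower (-0.17, adjusted p = 0.0403, limma). Frmd8, which lies 4.22 kb from Neat1, did not pass, with 0.18 (adjusted p = 0.109, limma; 0.0046 without Mbd2-/- library 4). Others that did not pass were C130026L21Rik, Crybb1, Snhg17, Tesk1 and Car9.

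The proteins that work with these RNAs were counted from lists of known members, beside the 12.0% higher and 10.0% lower among all genes tested. Among 17 paraspeckle proteins, which assemble on Neat1, 4 were lower and 13 did not pass, with a median log2 fold change of -0.08. Among the lower ones were Sfpq (-0.21, adjusted p = 0.0161, limma), a core paraspeckle protein, Cpsf7 (-0.21) and Hnrnpm (-0.20). Among 19 nuclear speckle proteins, 6 were lower and 13 did not pass, with a median of -0.09. Srrm2, a scaffold of speckles, had 5977 ± 334 normalized counts in wild-type and 4870 ± 462 in Mbd2-/- hippocampi (SD over the 4 libraries; log2 difference -0.30, adjusted p = 0.00356, limma), and Son, the other scaffold, had -0.20, Thrap3 -0.21 and Sart1 -0.25. The counts moved with the moderation and with single libraries in limma. Without trend and robust moderation, 1 paraspeckle and 2 speckle proteins were lower, and so were 6.45% of all genes. For paraspeckle proteins, 6 were lower without Mbd2-/- library 4, 2 without wild-type library 1, Mbd2-/- library 1 or Mbd2-/- library 2, and 0 without wild-type library 3, with 6 of 17 then at an unadjusted p under 0.05. For speckle proteins, 9 were lower without Mbd2-/- library 4, 2 without Mbd2-/- library 1, and 3 without wild-type library 3 or Mbd2-/- library 2. Of all genes, 17.6% were lower in the fit without Mbd2-/- library 4, and 5.98%, 6.05%, 6.33% and 6.47% without wild-type library 1, wild-type library 3, Mbd2-/- library 1 and Mbd2-/- library 2. With the length trend removed, 3 paraspeckle proteins were lower, and 2 speckle proteins were lower and 1 higher. Of all genes in that fit, 6.75% were lower and 7.94% higher.

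Among 11 proteins of RNase P and RNase MRP, the partners of Rpph1 and Rmrp, 4 were higher, beside 12.0% of all genes, and 7 did not pass, with a median log2 fold change of 0.24. Pop5 had 501 ± 31.9 in wild-type and 648 ± 70.7 in Mbd2-/- hippocampi (SD over the 4 libraries; log2 difference 0.37, adjusted p = 0.00411, limma), and Pop4 had 0.31, Rpp30 0.45 and Rpp14 0.24. The count was 1 in place of 4 with the length trend removed, beside 7.94% of the genes in that fit, and 2 without wild-type library 1 or Mbd2-/- library 1, beside 8.48% and 8.14% of all genes. Among 15 genes of the RNA polymerase I machinery, which transcribes Rn45s, 2 were higher, near the 12.0% of all genes, and 13 did not pass, with a median of -0.00308. Those 2, Polr1d (0.37, adjusted p = 0.0034, limma) and Polr1c (0.28), encode subunits that RNA polymerase I shares with RNA polymerase III. Among 19 ribosomal RNA processing factors, 3 were higher, Nhp2 (0.37), Npm1 (0.21) and Imp3 (0.27), 1 was lower, Nolc1 (-0.28), and 15 did not pass. With the length trend removed, the calls among ribosomal RNA processing factors were 0 higher and 2 lower, beside 7.94% and 6.75% of the genes in that fit. Of the 14 genes of the polymerase machinery with a length, 0 were called. At an unadjusted p under 0.05 in limma, the counts in that fit were 5 of 19 and 1 of 14. The polymerase count was 1 when any one library other than Mbd2-/- library 4 was left out, where 8.07% to 10.7% of all genes were higher. Among the processing factors, 2 were higher and 0 lower without wild-type library 3, beside 8.2% and 6.05% of all genes. In that fit, 5 of 19 had an unadjusted p under 0.05 in limma. Without Mbd2-/- library 4, 7 were higher and 1 lower, beside 17.9% and 17.6% of all genes.

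Other noncoding RNAs held calls in both directions, to be read beside the 12.0% higher and 10.0% lower of all genes. Among 15 tested host genes of small nucleolar RNAs other than Snhg11, 2 were higher and 13 did not pass. They were Snhg8 (141 ± 2.68 and 201 ± 12.6, SD over the 4 libraries; log2 difference 0.51, adjusted p = 0.000715, limma) and Gas5 (0.27, adjusted p = 0.0137), and the median was 0.21. The count was 1 without wild-type library 4, without Mbd2-/- library 1 and without trend and robust moderation. All genes called higher in these fits were 8.47%, 8.14% and 8.56%. Gas5 was the 1 called among 11 with a length once the length trend was removed, beside 7.94% of the genes in that fit. Among 17 other long noncoding RNAs of brain, 2 were higher, Rmst (0.51) and Pantr1 (0.34), 3 were lower, Peg13 (-0.30), Tug1 (-0.26) and Mir124a-1hg, the host of a neuronal microRNA (-0.52), and 12 did not pass. The lower count was 8 of 17 without Mbd2-/- library 4, beside 17.6% of all genes. Meg3, an imprinted RNA chosen here after its values were seen, had 6953, 6160, 7164 and 5633 in wild-type libraries 1 to 4 and 3609, 4153, 3601 and 6299 in Mbd2-/- libraries 1 to 4, with Mbd2-/- library 4 again within the wild-type range (log2 fold change -0.59, adjusted p = 0.0711, limma). Of 12 other short structural RNAs looked for, 2 were in the table. Vaultrc5, a vault RNA also made by RNA polymerase III, had 43.5 ± 13.9 and 95.7 ± 13.2 (SD over the 4 libraries; log2 difference 1.17, adjusted p = 0.000908, limma), and Terc, the telomerase RNA, had 14.6 ± 5.64 and 15.4 ± 3.35.

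**Figure D4:**
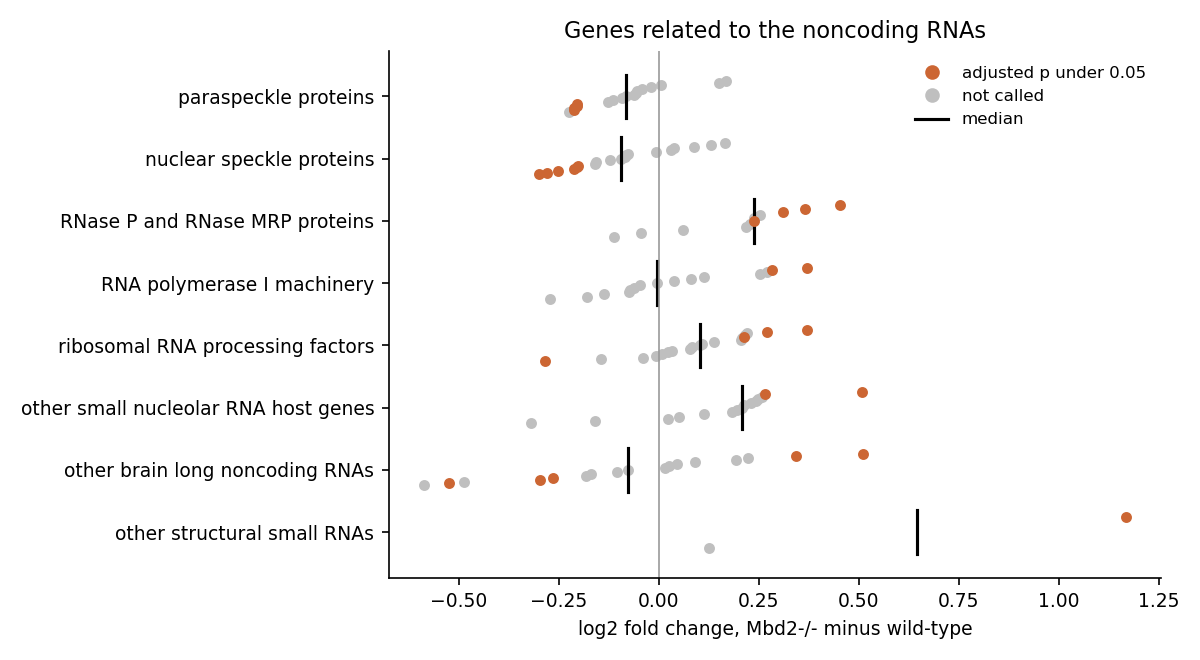
Log2 fold change, Mbd2-/- minus wild-type (x axis), of each tested gene in 8 lists of genes related to the 7 noncoding RNAs. Orange points had an adjusted p under 0.05 in limma, grey points did not, and black bars are medians; the called paraspeckle and speckle proteins lie left of 0 and the called RNase P and RNase MRP proteins right of it.

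Markers of other cell types and regions also differed between the genotypes, and in the 6 lists of several markers given here the summed count of Mbd2-/- library 4 lay on the side of its genotype. The sums are dominated by their most abundant genes, and single markers of Mbd2-/- library 4 lay within the wild-type range, 1 of 9 for thalamus, 2 of 8 for oligodendrocytes, 2 of 7 for microglia and 0 for choroid plexus, astrocytes and endothelial cells. The summed normalized count of 12 choroid plexus markers was 24051 to 25759 in wild-type libraries, 50906 to 53088 in Mbd2-/- libraries 1 to 3 and 46516 in library 4, and 12 of 12 were called higher. The sum of 9 thalamus markers was 4594 to 4778 in wild-type libraries, 3134 to 3452 in Mbd2-/- libraries 1 to 3 and 3812 in library 4, with 7 of 9 called lower, beside 10.0% of all genes. Beside 12.0% of all genes, those called higher were 6 of 8 oligodendrocyte markers (sums of 77374 to 78614 and 91128 to 97616), 5 of 7 astrocyte markers (114280 to 117057 and 126162 to 149208, the highest in Mbd2-/- library 4), 5 of 7 microglia markers (3914 to 4082 and 4361 to 5034) and 1 of 6 endothelial markers, a share near that of all genes. Of 3 blood markers, 1 was in the table, Alas2, and it was called lower (-0.23, adjusted p = 0.0236, limma). No marker in the table was at 0 in all libraries. The part of these cell types in the counts of the 7 RNAs was not tested, and in bulk tissue fewer cells of a type and less RNA per cell cannot be told apart.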

How the data were processed

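Hippocampal RNA was extracted with an AllPrep kit, depleted of ribosomal RNA with RiboMinus and read as paired ends of 100 bases on a HiSeq instrument. Per the study's methods and the submitters' notes, duplicates were dropped before alignment by STAR on the mm9 build, and DESeq2 compared the genotypes. Versions, the read counter and strandedness are not given in the sources used here. The deposited signal of a gene is a normalized count, for which the authors scaled its reads by a DESeq2 size factor. The table also holds the authors' own DESeq2 comparison, deposited as a log2 fold change with its standard error, a score (the Wald statistic) and p-values, and none of these was used. Removing duplicates limits how many reads a short, abundant RNA can collect, and the effect on Rmrp and Rpph1 was not tested.

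To recover reads, the values of a library were divided by the smallest one above 0, which left 100% of them whole to within 0.01. Totals ran from 8087750 to 23790825 reads and cover counting error only, since reads are not independent molecules. Genes whose normalized counts averaged 10 or more were compared on log2(normalized count + 1) with limma 3.58.1 (R 4.3.3; mean-variance trend, robust, Benjamini-Hochberg over 14504 genes, threshold 0.05), so fold changes of low genes are understated. The labels gave the groups, and replicates were pools of 2 mice. Exact permutation tests of 4 against 4 libraries are two-sided and cannot give a p below 0.0286. Alternatives were edgeR 4.0.16 (quasi-likelihood, TMM) and DESeq2 1.42.0 on the recovered reads, limma-voom, plain moderation, pseudocounts of 0.5 and 5, no minimum and a minimum of 50, other scalings, removal of a loess trend on log10 transcript length, a replicate block and each library left out. The main limma fit was also run on simulated counts with known changes.

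Positions, lengths and sequences are from GENCODE vM1 on mm9, which matched 17970 of 19201 symbols (93.6%). Rmrp and Rpph1 have other names there and were matched by position beside Ccdc107 and Parp2. Rn45s had no match, and its position and sequence were not analysed here. Named genes were the 7 RNAs, their neighbours, the 2 most alike genes of each, and up to 4 called genes of smallest p in each list, and a few genes that this rule selects are not reported here. The 7 RNAs, the lists and the rules were chosen with earlier results of these data known. No 2 libraries of a genotype were alike within counting noise, since their variance was at least 2.07 times that of counting over 12060 genes.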

Additional observations from a re-analysis of the deposited data

Results flagged for a closer look

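A library was set apart where its gap to the nearest of the 4 in its group, divided by the range of the group, was above Dixon's 95% critical value for 4 samples. This was so in 5 of 84 groups over 42 genes, and chance gives about 1 in 20. In Mbd2-/- replicate 4, Malat1 had 49629 normalized counts beside 21972 to 26363 in the other Mbd2-/- libraries, and Snhg11 had 3234 beside 2090 to 2179. Rn45s had 322326 in wild-type replicate 2 beside 424608 to 435877 in the other wild-type libraries. Among the related genes, Rmst had 333 in Mbd2-/- replicate 3 beside 295 to 299, and Son had 4852 in wild-type replicate 2 beside 5200 to 5213.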

How the results depend on the processing

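With all libraries, 14 alternatives were run for each RNA and 13 for Rn45s, whose length was not available for the length trend. Malat1 passed an adjusted p of 0.05 in 0 of them, Neat1 in 1, Miat in 12, Snhg11 in 9, Rn45s in 0, Rmrp in 2 and Rpph1 in 1, and the direction was kept except for Rmrp and Rpph1 once the length trend was removed. Removal of the length trend gave -0.24 for Neat1 (adjusted p = 0.039), -0.29 for Snhg11 (0.0714), -0.022 for Rmrp (0.844), -0.038 for Rpph1 (0.841) and 2067 called genes in place of 3185 (limma). With edgeR, Miat had -0.58 (adjusted p = 0.0517) and Snhg11 -0.36 (0.0642), and 0 of the 7 RNAs were called, with 6 at an unadjusted p under 0.05. With DESeq2, Snhg11 had -0.37 (adjusted p = 0.107), Rmrp 0.46 (0.022) and Rpph1 0.43 (0.04995). Without a trend and robust moderation Snhg11 had -0.39 (adjusted p = 0.0907, limma) and 1 RNA was called, and with a minimum mean of 50 Rmrp had 0.45 (0.0477). With the replicate number as a block, Miat had -0.62 (adjusted p = 0.185, limma) and Snhg11 -0.39 (0.0936), 0 RNAs were called, with 2 at an unadjusted p under 0.05, and 3192 genes were. The labels do not say whether the numbers pair animals. Libraries of the same number had deviations correlated at -0.19, -0.10, 0.20 and 0.08, which cannot show whether they share a litter or batch. The cause of these differences was not tested. When each library was left out in turn, the log2 fold change ran from -1.06 to -0.67 for Malat1, -0.61 to -0.34 for Neat1, -0.78 to -0.54 for Miat, -0.54 to -0.33 for Snhg11, 0.0027 to 0.24 for Rn45s, 0.36 to 0.56 for Rmrp and 0.30 to 0.56 for Rpph1. From 0 to 6 RNAs were then called, 6 without Mbd2-/- replicate 4, and from 2068 to 5155 genes. Every library had 713 reads or more on Miat and 593 or more on Neat1.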
